A study of Mus musculus with 3 samples.

Results

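The genes of the unfolded protein response and the integrated stress response were followed in mouse macrophages treated with adiponectin. The 37 members were named genes: 3 sensors of the endoplasmic reticulum (ER), 5 stress transcription factors, 12 ER chaperones and folding factors, 6 genes of ER-associated degradation (ERAD), 2 regulatory subunits of the eIF2α phosphatase and 9 further ATF4 targets. Each was found on the array through the transcript accession of its probes, which gave 48 probes. Of the 20660 genes with a symbol on the array, 13181 were measured, and these held 36 of the 37 members. Cth, which encodes the transsulfuration enzyme cystathionine gamma-lyase, was not measured, because neither of its 2 probes stood well above background in any of the 6 channel readings.

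Bone marrow cells of C57BL/6J mice had been matured into macrophages in medium conditioned by L929 cells, a source of the growth factor CSF-1, and were moved to low serum before treatment. In each of 3 experiments 1 culture received no addition and 1 received adiponectin, a hormone of fat tissue, for 18 h. The stated dose was 12 µg/ml, although 1 of the protocol texts gives the same figure in mg/ml. Both RNAs of an experiment shared a 2-colour array, and the dyes were swapped once: adiponectin RNA carried Cy5 on replicate 2 and Cy3 on the other arrays. The ratios were turned accordingly, so a log2 ratio above 0 means a higher normalised level after adiponectin. The normalisation within each array makes this level relative to the other genes of that array, and not an absolute amount of RNA. The labels call the experiments biological replicates and do not say whether separate or pooled animals were used. The p-values therefore measure the spread between these 3 arrays.

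In the unfolded protein response, the sensors ATF6, IRE1 (Ern1) and PERK (Eif2ak3) detect unfolded proteins in the ER. ATF6 and the transcription factor XBP1, whose mRNA is spliced by IRE1, switch on chaperones and ERAD genes. PERK and related kinases phosphorylate eIF2α, which lowers translation in general while favouring that of ATF4, and ATF4 in turn switches on genes of amino acid synthesis, the factor CHOP (Ddit3) and the phosphatase subunit GADD34 (Ppp1r15a), which reverses the phosphorylation. In macrophages these pathways also meet cytokine secretion and innate immune signalling. Splicing of Xbp1, cleavage of ATF6 and phosphorylation of eIF2α are not measured by probe intensity.

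Across the array, 24.5% of the genes tested were higher and 46.1% lower after adiponectin at a limma adjusted p under 0.05, and the median log2 ratio of all genes was -0.17 (-0.16, -0.14 and -0.21 on replicates 1, 2 and 3). With the ratios of every array re-centred over the tested genes (below, centring on the tested genes), 4639 genes were higher and 4835 lower, against 3225 and 6078. A probe stood well above background more often in the untreated channels (53.4% to 54.3% of probes) than in the treated ones (43.9% to 47.5%). All 7 macrophage markers on the array were above background in all 6 readings, and 6 of them were lower and 1 higher (log2 ratios from -2.05 to 0.97), with a summed log2 intensity of 17.2 to 17.5 in treated and 18.2 to 18.4 in untreated cultures. Of the 5 neutrophil markers, 2 were higher and 2 lower, and their summed log2 intensity was 11.5 to 11.7 in treated and 11.2 to 11.4 in untreated cultures. Of 5 fibroblast markers, 2 were above background in all readings and both were higher, and the summed log2 intensity was 9.10 to 9.26 in treated and 8.76 to 8.91 in untreated cultures. Of 3 endothelial markers 2 were above background in all readings and Kdr was higher (1.07), with a summed log2 intensity of 12.1 to 12.6 in treated and 11.2 to 11.4 in untreated cultures. The mast cell sum was 9.58 to 10.2 against 8.84 to 9.17, with Tpsb2 (1.05) alone of 3 markers above background in all readings, and the dendritic cell sum 8.81 to 8.95 against 8.17 to 8.21, with Zbtb46 (1.51) alone of 4. Of 5 T cell markers, Cd3e (0.96, higher) and Cd4 (-0.12, not called) were above background in all readings and Cd3g, Cd3d and Cd8a in none, with sums of 11.2 to 11.4 against 11.1 to 11.2. No B cell, NK cell or erythroid marker was above background in all 6 readings. The part of these shifts in the results was not tested, and in bulk RNA fewer cells of a type and less RNA per cell cannot be told apart.

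The members moved in both directions. Of the 36 measured, 13 rose (36.1%), 12 fell (33.3%) and 11 did not pass the test, beside 24.5% higher and 46.1% lower among all genes. After centring on the tested genes, 17 were higher and 10 lower. Among the members that rose, 4 did so by 2-fold or more (Ppp1r15b, Nupr1, Ppp1r15a and Psat1), and among those that fell, 3 did (Atf6, Sel1l and Atf5), where 6.79% of all genes rose and 12.6% fell that far. The median of the 36 was 0.02, with 0.06, 0.06 and -0.09 on the 3 arrays. Of the 36, 25 had the same sign on all 3 arrays, a smaller share than among all genes (10821 of 13181). The members' ratios on replicate 1 were the highest of the 3 in 21 cases, against 32.3% of all genes, and those on replicate 3 in 4 cases, against 25.5%.

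**Figure D1:**
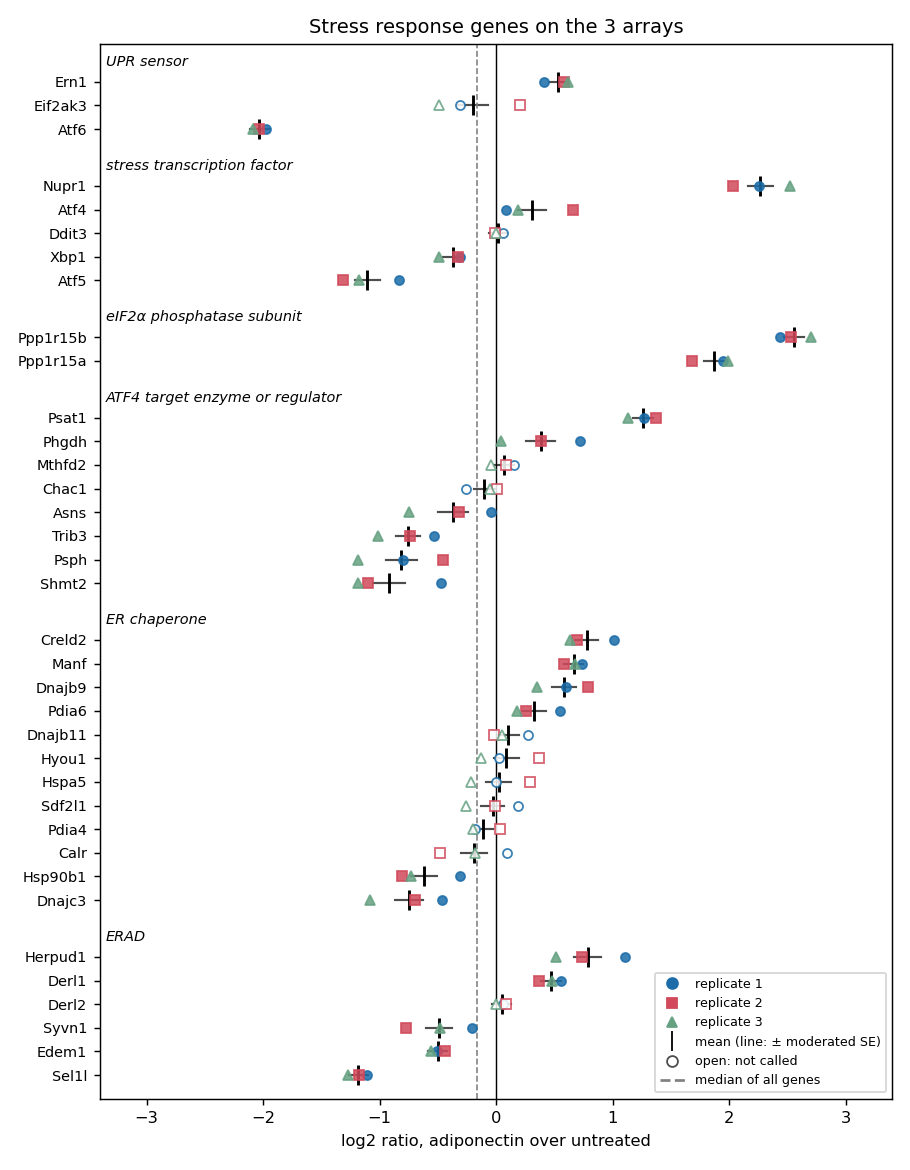
Log2 ratio of adiponectin-treated over untreated macrophages (horizontal axis) for each measured member (rows, grouped by role), with 1 point for each of the 3 arrays. The phosphatase subunits and Nupr1 lie furthest to the right and Atf6 furthest to the left, while the ER chaperones stay between -0.75 and 0.78 in the mean.

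The 3 sensors did not move together. Atf6, the transcription factor that is released from the ER by cleavage, had normalised log2 intensities of 7.52, 7.31 and 7.48 in treated and 9.497, 9.35 and 9.57 in untreated cultures on replicates 1, 2 and 3. Every untreated reading lay above every treated one. The mean log2 ratio of Atf6 was -2.03 ± 0.081 (± is the moderated standard error over n = 3 arrays here and below, limma adjusted p = 2.5e-07), a 4.09-fold lower level and the lowest ratio among the members, at place 13026 of the 13181 genes ranked from the highest ratio. Ern1, the kinase and RNase that splices Xbp1, had log2 ratios of 0.41, 0.58 and 0.61 and rose 1.45-fold (log2 0.53 ± 0.085, limma adjusted p = 0.00054). Eif2ak3, the eIF2α kinase of the ER, gave -0.31, 0.21 and -0.49, with opposite signs on the 2 dye orientations, and did not pass the test (log2 -0.20, 95% interval -0.50 to 0.10, limma adjusted p = 0.201). Without replicate 2, the array on which the treated RNA carried Cy5, its ratio was -0.40 with a limma adjusted p of 0.00551, while over the 13 alternative settings other than median centring (below, the 13 settings) the adjusted p ranged from 0.00551 to 0.843.

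Among the stress transcription factors, Nupr1 rose most. Nupr1, a small chromatin protein induced by many stresses, had log2 intensities of 16.01, 15.57 and 16.16 in treated and 13.76, 13.53 and 13.64 in untreated cultures. The groups were far apart, and Nupr1 rose 4.81-fold (log2 2.27 ± 0.105, limma adjusted p = 4.88e-07). Atf5, whose translation is controlled like that of Atf4, moved the other way, with 12.74, 12.64 and 12.69 in treated against 13.57, 13.95 and 13.86 in untreated cultures. It fell by 1.11 ± 0.106 on the log2 scale (limma adjusted p = 2.52e-05). Xbp1, the partner of Ern1, gave -0.31, -0.33 and -0.49 and was 1.30-fold lower (log2 -0.38 ± 0.084, limma adjusted p = 0.00377), a call lost after centring on the tested genes (limma adjusted p = 0.0506, with 0.00261 to 0.0506 over the 13 settings).

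Atf4 itself gave log2 ratios of 0.08, 0.66 and 0.18 with its brighter probe and 0.81, 0.61 and 0.60 with the other. The brighter probe was 1.24-fold higher (log2 0.31 ± 0.118, limma adjusted p = 0.0443), and the large value came from replicate 2. Without replicate 2 the ratio was 0.13 (limma adjusted p = 0.217), and the adjusted p was 0.0637 without replicate 3 and ranged from 0.00074 to 0.217 over the 13 settings. The call held in 6 of the 13 settings. With all 3 arrays kept it was also lost, as with the authors' deposited ratios (limma adjusted p = 0.0571). Ddit3, which encodes CHOP, had log2 intensities of 12.66, 12.68 and 12.59 in treated and 12.60, 12.69 and 12.59 in untreated cultures, and these overlapped. The 95% interval of its log2 ratio ran from -0.17 to 0.20.

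Both eIF2α phosphatase subunits rose, and Ppp1r15b had the highest ratio of the members measured. Ppp1r15b encodes CReP, the constitutive subunit, and had log2 intensities of 10.36, 10.48 and 10.58 in treated and 7.92, 7.95 and 7.88 in untreated cultures. It rose 5.88-fold (log2 2.56 ± 0.088, limma adjusted p = 1.26e-07), place 133 of 13181. Ppp1r15a, the stress-inducible subunit GADD34, had 14.24, 14.09 and 14.41 in treated and 12.29, 12.41 and 12.43 in untreated cultures. The rise was 3.66-fold (limma adjusted p = 6.74e-07). For both genes the treated readings lay above all untreated ones. Over the 13 settings the log2 ratio stayed within 2.48 to 3.13 for Ppp1r15b and 1.81 to 2.04 for Ppp1r15a. Median centring, which is not among the 13, gave smaller ratios and neither call held. They were 1.46 for Ppp1r15b (limma adjusted p = 0.0922) and 0.76 for Ppp1r15a (limma adjusted p = 0.337).

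**Figure D2:**
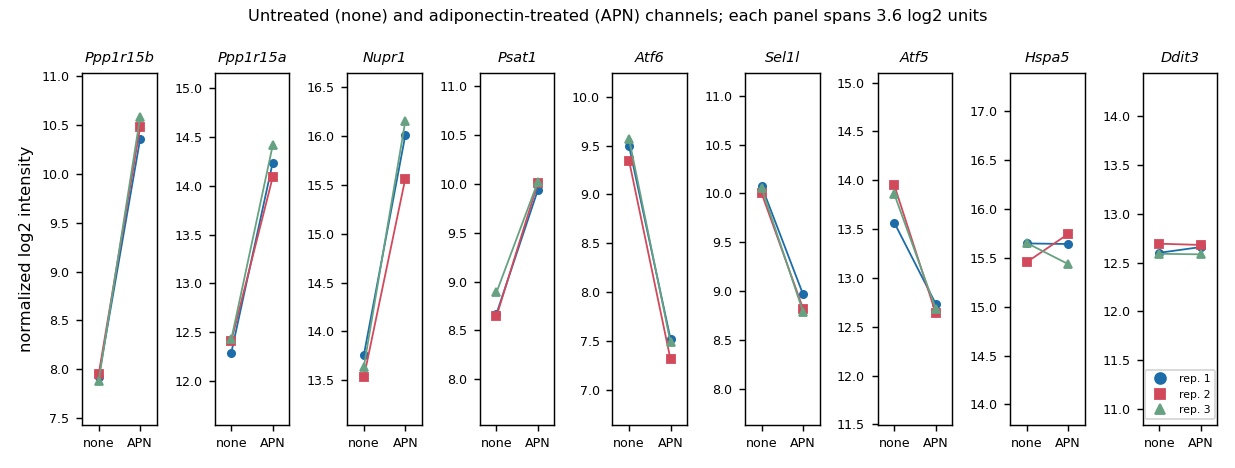
Normalised log2 intensity (vertical axis, every panel spanning the same number of log2 units) of 9 members in the untreated and adiponectin-treated channel, with a line for each array. The lines of Ppp1r15b, Ppp1r15a, Nupr1 and Psat1 rise and those of Atf6, Sel1l and Atf5 fall on all 3 arrays, while those of Hspa5 cross and those of Ddit3 are nearly level.

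A known promoter element was frequent among the ER chaperones. The ER stress response element (ERSE), to which NF-Y and ATF6 or XBP1 are known to bind, was searched as CCAAT, 9 bases of any kind and CCACG on both strands, from 250 bases before to 50 after the annotated start. It was present in 37 of 27025 genes (0.137%), in 7 of the 31 members that have a promoter window (22.6%) and in 6 of the 10 ER chaperones with one (60%). No ATF4 target held it, and in the 7 members it lay between 26 and 212 bases before the start. The windows below show each ERSE in capitals on the strand that carries it, in RefSeq's GRCm38.p6, because these members carry the classical response element and yet differed in their ratios.
Hspa5, chr2:34772007-34772061, plus strand: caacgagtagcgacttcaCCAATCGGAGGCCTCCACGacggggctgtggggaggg
Calr, chr8:84847057-84847111, plus strand: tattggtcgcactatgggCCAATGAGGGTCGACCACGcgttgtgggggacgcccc
Hsp90b1, upstream copy, chr10:86705620-86705674, minus strand: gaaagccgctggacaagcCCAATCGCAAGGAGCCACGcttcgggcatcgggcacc
Hsp90b1, downstream copy, chr10:86705515-86705569, plus strand: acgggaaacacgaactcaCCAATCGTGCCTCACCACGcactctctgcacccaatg
Pdia6, chr12:17266473-17266527, plus strand: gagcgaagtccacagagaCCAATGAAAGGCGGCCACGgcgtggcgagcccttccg
Dnajc3, chr14:118937809-118937863, plus strand: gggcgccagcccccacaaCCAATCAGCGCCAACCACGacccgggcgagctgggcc
Creld2, chr15:88819502-88819556, minus strand: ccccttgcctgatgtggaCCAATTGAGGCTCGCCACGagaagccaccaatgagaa
Syvn1, chr19:6046514-6046568, plus strand: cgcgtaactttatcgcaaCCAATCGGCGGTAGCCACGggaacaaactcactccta

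Of these 7 genes, Creld2 and Pdia6 rose (28.6%, beside 24.5% of all genes) and Hsp90b1, Dnajc3 and Syvn1 fell (42.9%, near the 46.1% of all genes). Hspa5 and Calr did not pass the test, and the median log2 ratio of the 7 was -0.19 beside -0.17 for all genes. Over the whole array 18 genes with an ERSE were measured, with a median of -0.17. Of these, 3 were higher (16.7%, beside 24.5% of all genes), 8 lower (44.4%, near the 46.1% of all genes) and 7 not called. The 3 higher genes were Creld2, Pdia6 and Derl3, the last named after its value was seen. A match is a description of letters in the window and not of binding.

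With the brightest probe of each gene, the ER chaperones stayed within mean log2 ratios of -0.75 and 0.78. Of the 12, 4 rose (33.3%, beside 24.5% of all genes), 2 fell (16.7%, beside 46.1%) and 6 did not pass the test. None reached 2-fold, as 6.79% of all genes did upward and 12.6% downward, and the median was 0.05 (0.14, 0.14 and -0.16 on the 3 arrays). After centring on the tested genes, 6 were higher and 2 lower. Hspa5, which encodes BiP, the main ER chaperone and a sentinel of the response, had log2 intensities of 15.64, 15.75 and 15.44 in treated and 15.65, 15.46 and 15.65 in untreated cultures. The readings overlapped, and the 95% interval of its log2 ratio ran from -0.22 to 0.27. Creld2, a disulfide isomerase that is secreted under stress, gave 1.01, 0.69 and 0.63 and rose 1.71-fold (log2 0.78 ± 0.098, limma adjusted p = 0.00013). Manf, a secreted cofactor of BiP, gave 0.73, 0.58 and 0.67 and rose 1.58-fold (limma adjusted p = 0.000114). Dnajb9, a J-domain cochaperone that feeds back on IRE1, gave 0.60, 0.79 and 0.35 and rose 1.49-fold (limma adjusted p = 0.000912). Its second probe gave a mean log2 ratio of 1.19, which is above 2-fold, and the mean over probes was 0.89.

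The rise of the remaining chaperone depended on replicate 1 and on the processing. Pdia6, a protein disulfide isomerase, gave 0.55, 0.25 and 0.18, and its 1.25-fold rise (log2 0.33 ± 0.097, limma adjusted p = 0.015) was highest on replicate 1. Without replicate 1 the ratio was 0.22 and the limma adjusted p 0.156, the upper end of its range of 0.00104 to 0.156 over the 13 settings, and its dimmer probe gave 0.08. The call was also lost with the scanner's log ratio (0.25, limma adjusted p = 0.127) and with the mean over probes (0.20, limma adjusted p = 0.0824). The falls were those of Hsp90b1 and Dnajc3. Hsp90b1 encodes GRP94, the ER paralogue of HSP90, and gave -0.32, -0.81 and -0.73, with a 1.53-fold lower level (log2 -0.62 ± 0.109, limma adjusted p = 0.000996). Dnajc3 encodes P58IPK, an inhibitor of PERK, and gave -0.46, -0.70 and -1.08, with a 1.68-fold lower level (limma adjusted p = 0.00054).

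The other chaperones did not pass the test. Calr, the lectin chaperone calreticulin, gave 0.09, -0.49 and -0.18, with a mean of -0.19 (limma adjusted p = 0.167). Without replicate 1 its ratio was -0.33 and the adjusted p 0.0494, within a range of 0.0255 to 0.883 over the 13 settings. Pdia4 (-0.12), Sdf2l1 (-0.03), Hyou1 (0.09) and Dnajb11 (0.10), which are a disulfide isomerase, a BiP-associated factor, a nucleotide exchange factor and a cochaperone of BiP, had limma adjusted p-values from 0.257 to 0.803. Dnajb11 and Hyou1 passed the test, as higher, only after centring on the tested genes, where they had limma adjusted p-values of 0.022 and 0.0449, within ranges of 0.022 to 0.925 and 0.0449 to 0.612 over the 13 settings.

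Of the 6 ERAD members, 2 rose (Herpud1 and Derl1) and 3 fell (Sel1l, Syvn1 and Edem1), shares of 33.3% and 50% beside 24.5% and 46.1% of all genes, with a median of -0.22 beside -0.17. Herpud1, an ER membrane protein that recruits the degradation machinery, rose 1.72-fold (log2 ratios 1.10, 0.74 and 0.51, limma adjusted p = 0.000345). Its promoter window held both a compact ER stress element (ERSE-II, searched as ATTGG, any base and CCACG, present in 0.0444% of genes and in 2 of 31 members, the other being Dnajb11) and an ATF4 element, and these are shown because no other member window held both kinds.
Herpud1, ERSE-II, chr8:94386359-94386405, plus strand: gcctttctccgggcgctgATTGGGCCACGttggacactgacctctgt
Herpud1, ATF4 element, chr8:94386299-94386342, minus strand: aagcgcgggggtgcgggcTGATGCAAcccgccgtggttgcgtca

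Sel1l, the scaffold of the main ERAD ubiquitin ligase, had log2 intensities of 8.97, 8.82 and 8.79 in treated and 10.07, 10.001 and 10.06 in untreated cultures, without overlap. The mean log2 ratio was -1.19 ± 0.082, a 2.27-fold lower level (limma adjusted p = 4.03e-06). Syvn1, the ligase HRD1 that works with Sel1l, gave -0.21, -0.78 and -0.48 and fell by 0.49 on the log2 scale (limma adjusted p = 0.00431). Edem1, a lectin that hands misfolded glycoproteins to ERAD, gave -0.51, -0.44 and -0.56 and was 1.42-fold lower (limma adjusted p = 0.000576). Derl1 and Derl2 encode channel proteins of the same machinery. The brighter Derl1 probe was 1.38-fold higher (0.56, 0.37 and 0.48, limma adjusted p = 0.00106), but the other averaged -0.44, and the mean over probes was 0.02 with the call lost (limma adjusted p = 0.873, the upper end of a range from 0.000106 over the 13 settings). Derl2 gave 0.05, 0.08 and -0.00 and did not pass the test (limma adjusted p = 0.63), except after centring on the tested genes (0.036, with 0.036 to 0.982 over the 13 settings).

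The ATF4 targets comprised Ddit3, Atf5, Nupr1, Ppp1r15a and the 9 enzymes and regulators, of which 12 of 13 were measured. An ATF4 element, TGATGNAA on either strand, occurred in the promoter windows of 1219 genes (4.51%), of 4 of the 12 ATF4 targets with a window (33.3%: Chac1, Trib3, Asns and Nupr1) and of none of the 10 ER chaperones. The elements that lie before the start are shown in capitals for comparison with the chaperone set.
Chac1, chr2:119351031-119351074, minus strand: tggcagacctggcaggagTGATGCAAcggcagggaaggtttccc
Asns, chr6:7693210-7693250, minus strand: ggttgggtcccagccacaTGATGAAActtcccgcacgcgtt
Nupr1, chr7:126625555-126625598, plus strand: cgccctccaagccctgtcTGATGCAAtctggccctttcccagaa

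These 4 genes did not share a direction either, since Nupr1 rose, Trib3 and Asns fell and Chac1 did not pass the test. Over the array, 308 genes with an ATF4 element were measured, of which 26.3% were higher and 43.2% lower, near the 24.5% and 46.1% of all genes. Trib3, a pseudokinase that restrains ATF4, gave -0.53, -0.74 and -1.01 and fell by 0.76 ± 0.105 on the log2 scale (limma adjusted p = 0.000226). Chac1, a glutathione-degrading enzyme, gave -0.26, 0.00 and -0.05 (mean -0.10, limma adjusted p = 0.324). Asns, asparagine synthetase, gave -0.04, -0.32 and -0.74, a 1.29-fold lower level (limma adjusted p = 0.03) that was largest on replicate 3. Without replicate 3 the Asns ratio was -0.18 (limma adjusted p = 0.223), and without replicate 2 the adjusted p was 0.0536. With all 3 arrays kept the call was also lost in some settings. The limma adjusted p was 0.105 with normexp offset 0, 0.104 with the scanner's ratio and 0.162 with centring on the tested genes. The call held in 8 of the 13 settings, over which the adjusted p ranged from 0.00768 to 0.223.

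The serine synthesis enzymes moved apart. Phgdh, Psat1 and Psph catalyse successive steps from a glycolytic intermediate to serine. Psat1 had log2 intensities of 9.94, 10.01 and 10.02 in treated and 8.67, 8.64 and 8.89 in untreated cultures, without overlap, a 2.39-fold rise (limma adjusted p = 3.68e-06). Its other probe averaged a log2 ratio of 0.58, and the mean over probes was 0.92 (limma adjusted p = 2.19e-05, with 2.91e-07 to 0.00032 over the 13 settings), below 2-fold. Phgdh gave 0.72, 0.39 and 0.04, a 1.30-fold rise (limma adjusted p = 0.0231) that was lost without replicate 1 (0.21, limma adjusted p = 0.195) and without replicate 2 (0.0549), with a range of 0.00197 to 0.195 over the 13 settings. Psph, the last enzyme of the route, gave -0.80, -0.46 and -1.19 and was 1.76-fold lower (log2 -0.81 ± 0.131, limma adjusted p = 0.000567), and its other probe averaged -0.55.

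The mitochondrial one-carbon enzymes Shmt2 and Mthfd2 did not rise. Shmt2, which passes a carbon from serine to folate, gave -0.47, -1.10 and -1.19 and was 1.89-fold lower (log2 -0.92 ± 0.137, limma adjusted p = 0.000351). Mthfd2, the next enzyme, gave 0.15, 0.09 and -0.05 and did not pass the test (mean 0.06, 95% interval -0.13 to 0.26, limma adjusted p = 0.52). After centring on the tested genes it did, as higher (limma adjusted p = 0.0294, with 0.0294 to 0.904 over the 13 settings).

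The ATF4 targets spanned a wider range of ratios than the chaperones. Of the 12 measured ATF4 targets, 4 rose (33.3%, beside 24.5% of all genes), 5 fell (41.7%, near the 46.1% of all genes) and 3 did not pass the test, with 3 of the rises and 1 of the falls at 2-fold or more. Centred on the tested genes, 5 were higher and 4 lower. With the brightest probe of each gene, their mean log2 ratios ran from -1.11 to 2.27, against -0.75 to 0.78 for the chaperones. The medians over the full lists were -0.04 for the ATF4 targets (0.01, -0.01 and -0.05 on the 3 arrays) and 0.05 for the chaperones. The ATF4 median minus the chaperone median was -0.13, -0.15 and 0.11 on replicates 1, 2 and 3, with a mean of -0.06 ± 0.14 (SD, n = 3 arrays), smaller than the spread between arrays and of changing sign. The difference depended on which genes the list held. Without Atf5, Ddit3, Ppp1r15a and Nupr1, the ATF4 target median was -0.24 and the difference -0.29, -0.30 and -0.24 on the 3 arrays, with a mean of -0.28 ± 0.031 (SD, n = 3 arrays) and 1 sign throughout. No test was made of either difference, since the members were chosen with results known.

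**Figure D3:**
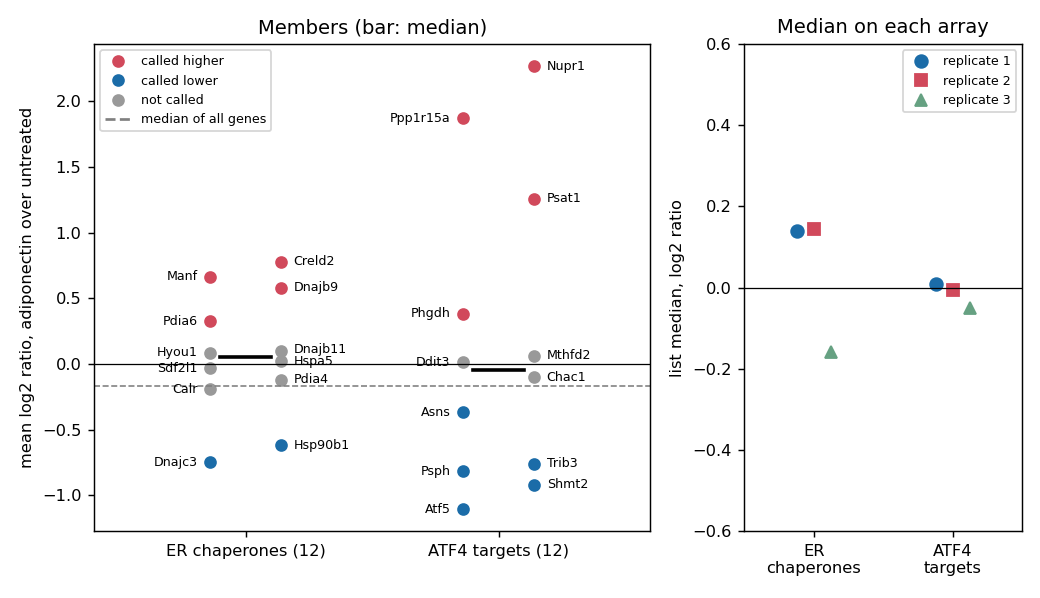
Left, mean log2 ratio of adiponectin over untreated for each of the 12 ER chaperones and 12 measured ATF4 targets, coloured by call, with a bar at the median of each list and a dashed line at the median of all genes (-0.17). Right, the list medians on each of the 3 arrays, which lie between -0.16 and 0.14, with the chaperones below the ATF4 targets on replicate 3 only.

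Other genes of the pathways were read from 6 lists that held no member. The tRNA synthetases, many of which are ATF4 targets, did not include a riser: 14 of 21 fell (66.7%, beside 46.1% of all genes), 7 did not pass the test and none rose, at the adjusted or the unadjusted threshold, with a median of -0.48 beside -0.17 for all genes. Of these, Lars (leucine) had a log2 ratio of -1.47 ± 0.092 (limma adjusted p = 2.24e-06), Iars (isoleucine) of -1.34 and Nars (asparagine) of -1.27. Rars (arginine), named after its value was seen, had the highest ratio of the list, 0.10, and was called higher with 3 alternatives of the scaling (log2 0.28 with centring on the tested genes).

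Of 21 further measured genes of the ATF4 program, 9 rose (42.9%, beside 24.5% of all genes) and 5 fell (23.8%, beside 46.1%). Of these, 7 rises and 2 falls were of 2-fold or more, where 6.79% of all genes rose and 12.6% fell that far. The list median was -0.03, beside -0.17 for all genes. Jdp2, a bZIP repressor that pairs with AP-1 factors, gave 3.59, 3.43 and 3.79 and rose 12.2-fold (limma adjusted p = 4.16e-08). Gdf15, a secreted stress cytokine, gave 3.25, 3.74 and 3.23 and rose 10.6-fold (limma adjusted p = 1.15e-07), beside Ddit4, an inhibitor of mTORC1, with 3.58, 4.06 and 3.77. The falls were led by enzymes of amino acid metabolism, Gpt2 (-1.09) and Aldh18a1 (-1.02), and by the glutamine transporter Slc1a5 (-0.73). Amino acid genes did not share a direction, since the transporter genes Slc6a9 (2.22), Slc7a11 (1.29) and Slc3a2 (1.02) rose. The transporter genes Slc7a1, Slc7a5 and Slc1a4 did not pass the test. These further transporter genes were named after their values were seen.

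Around eIF2α, 7 of 13 genes fell (53.8%, beside 46.1% of all genes) and 2 rose (15.4%, beside 24.5%). The interferon-inducible kinase Eif2ak2 (PKR) gave -2.39, -1.98 and -2.15, a 4.51-fold lower level (limma adjusted p = 4.49e-07). Ppp1cc, a catalytic subunit to which both phosphatase regulators bind, had a log2 ratio of -1.11 and Eif2b5, a subunit of the exchange factor, of -0.72, and both passed the test. Nck1, an adaptor reported to act on eIF2α phosphorylation, gave 1.59, 1.67 and 1.599 and rose 3.07-fold, and Eif2b2 rose by a log2 ratio of 0.62.

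In the ER itself, 11 of 24 other folding genes fell (45.8%, near the 46.1% of all genes) and 4 rose (16.7%, beside 24.5%), with a median of -0.26. The falls included the glycoprotein folding sensor Uggt1 (-1.28), calnexin (Canx, -0.93) and the glucosidase subunit Ganab (-0.83). The rises were led by the membrane J-protein Dnajc1 (1.98 ± 0.099, limma adjusted p = 7.37e-07), then the signal peptidase subunit Spcs2 (0.63) and the translocon-associated Ssr2 (0.35). Of 15 other ERAD genes, 6 rose and 6 fell (40.0% each, beside 24.5% higher and 46.1% lower among all genes). Among them were the ubiquitin-conjugating enzyme Ube2j1 at 1.42, the glycoprotein factor Edem2 at 1.10, the ubiquitin ligase Marchf6 at -0.97 and the lectin Os9 at -0.65. Another 2 probes of Ube2j1 gave 1.12 and -0.21. Faf2 gave 1.44 with the brightest probe and -1.25 with another. Among 11 other transducers, 5 rose (45.5%, beside 24.5% of all genes) and 3 fell (27.3%, beside 46.1%). Traf2, the adaptor of IRE1, gave 2.40, 1.72 and 2.45, although another probe averaged 0.33. Both proteases that cleave ATF6 were lower, Mbtps1 with a log2 ratio of -0.97 (1.06 with another probe) and Mbtps2 of -0.57. Among the ER-bound transcription factors, Creb3l2 (0.73) and Atf6b (0.37) were higher and Creb3 (-0.92) lower. In all 6 lists, 26 genes were higher and 46 lower, where 3225 of all genes were higher and 6078 lower. After centring on the tested genes, the lists held 34 higher and 37 lower, beside 4639 and 4835 of all genes. More falls than rises were thus found over all genes too.

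**Figure D4:**
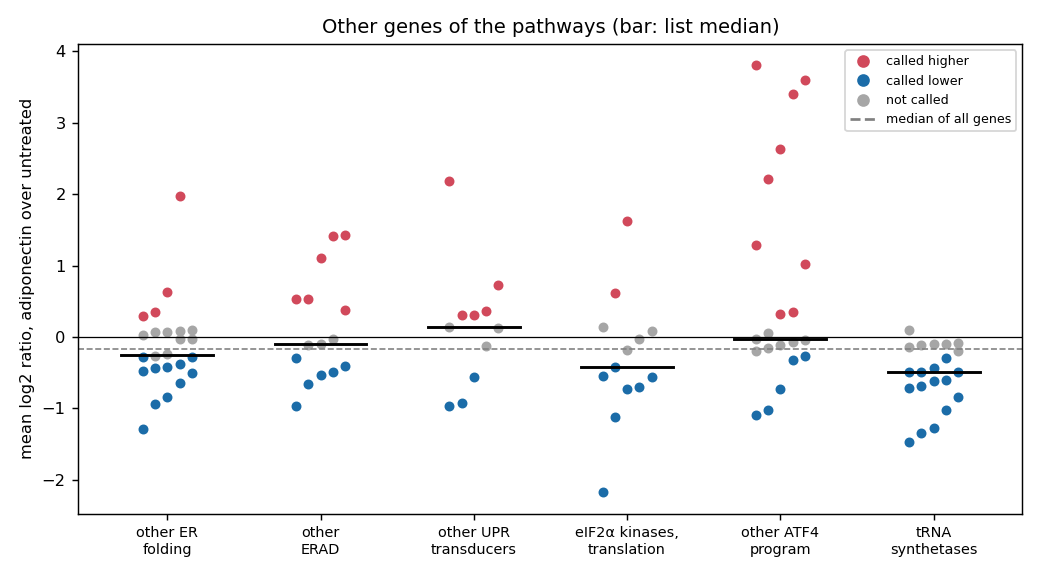
Mean log2 ratio of adiponectin over untreated for the genes of the 6 further lists, 1 point per measured gene, coloured by call, with the list medians. No tRNA synthetase lies among the genes called higher, and the median of that list is -0.48.

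With 2 arrays of 1 dye orientation against 1, a dye effect does not fully cancel in the mean. In a fit with a dye term, 0 of 36 members and 47 of 13181 genes had a dye effect at a limma adjusted p under 0.05 (7 and 1657 at an unadjusted p under 0.05), with 1 residual degree of freedom. The result did depend on the within-array normalisation. With median centring in place of loess no gene passed limma's test after adjustment (5312 had an unadjusted p under 0.05), and the members' medians were -1.72, 0.34 and -1.97 on replicates 1, 2 and 3, beside -1.48, -0.06 and -1.67 for all genes, so the arrays separated by dye orientation. Of the 36 members, 15 changed sign with median centring, 9 of them called with loess.

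**Figure D5:**
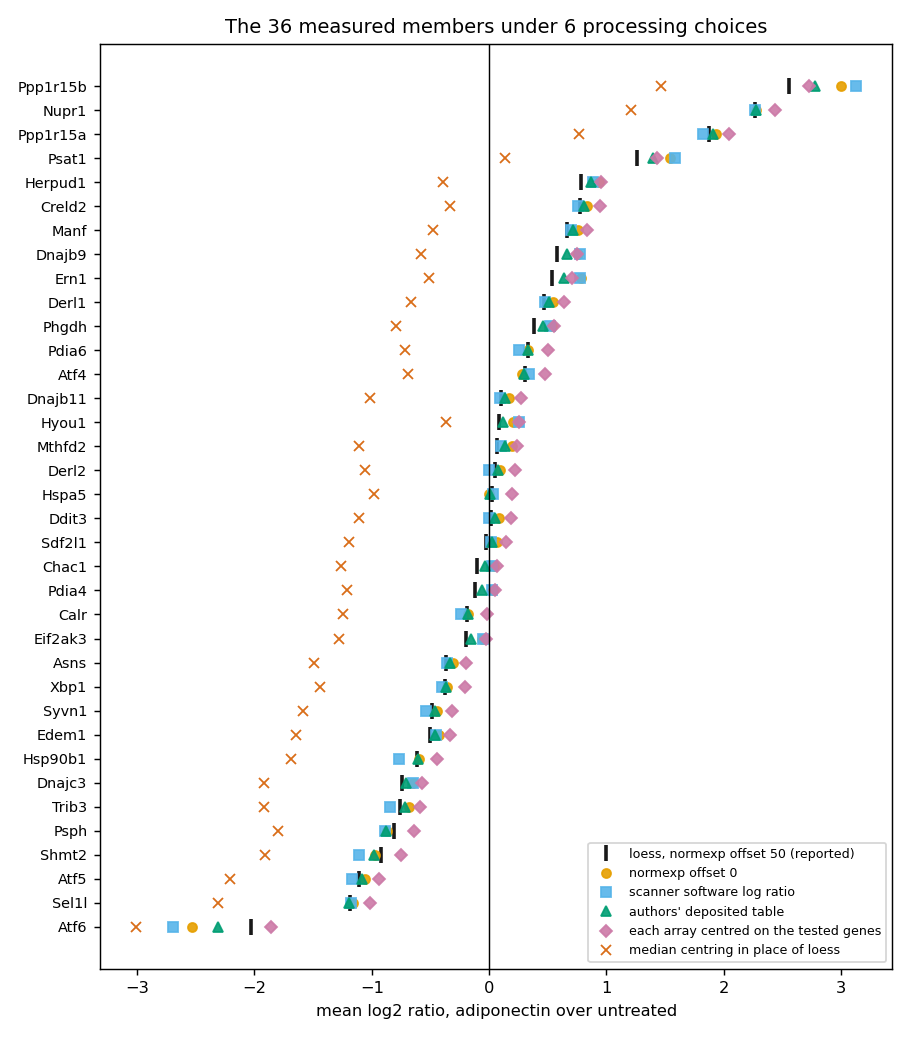
Log2 ratio of each measured member under the alternative settings of the processing. With median centring most members lie far below their other values. Under the other settings shown, Ppp1r15b, Nupr1 and Ppp1r15a stay at or above 1.82 and Atf6 at or below -1.86.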

How the data were processed

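Total RNA of 3 untreated and 3 adiponectin-treated cultures was compared on 3 Agilent 2-colour arrays of 1 slide. The deposited scanner files, made with Agilent Feature Extraction 10.7.3.1 per the submitters' processing notes, hold the intensity of each spot and background in both channels and a log10 ratio, per the file headers. The authors' deposited value table holds log2 ratios, with a normalisation not given in the sources used here.

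Median spot intensities were background-corrected with normexp (offset 50) and normalised by loess within each array, control spots having weight 0, in limma 3.58.1 (R 4.3.3). The log2 intensities given for single channels were also normalised between arrays (limma's Aquantile method), a step that leaves the ratios unchanged. Outlier spots (299 to 323 per array) were left out, and no spot was saturated. A probe was kept if well above background in 3 of 6 channel readings, and the brightest measured probe stood for a gene. Ratios were turned to treated over untreated and tested against 0 with lmFit and eBayes (2 residual degrees of freedom, prior 6.21), with Benjamini-Hochberg adjustment over 13181 genes. The median standard error was 0.0885, and the number of arrays limits the precision. The script was checked on simulated data. Named members are all 37, and of each other list the called genes with the 3 largest rises and falls, of which 1 is not reported here. The members and lists were chosen with earlier results of these data known. Alternatives were another background correction, the scanner's and the authors' ratios, median centring, centring on the tested genes, other probe filters, a dye term, separate channels and leaving out each array. Slide could not be a block, since all arrays shared 1. Promoter windows came from RefSeq (GRCm38.p6), with none used here for Hyou1, Manf, Ppp1r15b, Atf6, Derl1 and Cth.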

Additional observations from a re-analysis of the deposited data

How the results depend on the processing

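With median centring in place of loess, no member, ER chaperone, ATF4 target, other pathway gene or tRNA synthetase was called in either direction (0 each, and 0 genes in all). At an unadjusted p under 0.05 it gave 1 member higher and 10 lower, 13 tRNA synthetases lower and 5312 genes in all. The chaperone median was -1.001 and the ATF4 target median -1.19, beside -1.03 for all genes. These members changed sign with it: Ern1 -0.52, Atf4 -0.70, Ddit3 -1.11, Hspa5 -0.98, Dnajb9 -0.58, Dnajb11 -1.02, Pdia6 -0.72, Hyou1 -0.37, Creld2 -0.33, Manf -0.48, Herpud1 -0.39, Derl1 -0.66, Derl2 -1.06, Phgdh -0.80 and Mthfd2 -1.11. The members that had moved by 2-fold or more with loess kept their sign. Their ratios were 1.46 for Ppp1r15b, 1.21 for Nupr1, 0.76 for Ppp1r15a and 0.14 for Psat1. Those of the fallers were -3.01 for Atf6, -2.31 for Sel1l and -2.21 for Atf5. The cause of these changes was not tested.

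Members near 0 changed sign under other settings, none of them called. Normexp offset 0 gave Hspa5 -0.000496, Sdf2l1 0.0630, Pdia4 0.0345 and Chac1 0.0441. No background correction gave Sdf2l1 0.00683. The scanner's log ratio gave Ddit3 -0.000621, Sdf2l1 0.0153, Pdia4 0.0261 and Chac1 0.0239, and the authors' deposited table Sdf2l1 0.0211. Centring on the tested genes gave Sdf2l1 0.14, Pdia4 0.0531 and Chac1 0.0685. Leaving out 1 array at a time, Ddit3 ranged from -0.00902 to 0.0265, Hspa5 from -0.111 to 0.141, Hyou1 from -0.0570 to 0.195 and Sdf2l1 from -0.138 to 0.0847.

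The ATF4 target median was 0.0640 with offset 0, -0.0065 without background correction, 0.0117 with the scanner's ratio, 0.0082 with the authors' deposited table, 0.13 centred on the tested genes and 0.0135 without the filter on dim probes. With only the 9 enzymes and regulators it was -0.24, and the difference from the chaperones -0.28 ± 0.031 (SD over 3 arrays), below 0 on each array. The tRNA synthetases had 1 gene called higher (Rars) with offset 0, with the scanner's ratio and with centring on the tested genes, and 9 lower with the scanner's ratio.

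Leaving out 1 array at a time, 11 to 12 members were higher and 11 to 13 lower, 3 to 4 chaperones higher and 2 to 3 lower, 3 to 4 ATF4 targets higher and 4 to 5 lower, 25 to 27 other pathway genes higher and 36 to 47 lower, and 12 to 14 tRNA synthetases lower with 0 higher. The chaperone median was -0.04 to 0.14, the ATF4 target median -0.064 to -0.018 and the difference -0.14 to -0.012. The test of within-array ratios is itself paired by array. The fit of separate channels took the array as a random block, and it gave 13 members higher and 12 lower. No fit with any other block was made.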
